A study of Mus musculus with 10 samples.

Results

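Immune checkpoint receptors, costimulatory ligands and other CD surface molecules of myeloid cells were examined in the mouse spinal cord. The members are 10 listed genes, *Lag3*, *Havcr2*, *Cd83*, *Cd84*, *Cd86*, *Cd52*, *Cd48*, *Cd33*, *Cd180* and *Cd274*, found by an exact match of the gene name, and all 10 were present among the 25232 genes of the table. RNA was sequenced from the spinal cord of female mice of 90 days, labelled as strain C57BL/6 and kept on a C57BL/6J background per the methods, 5 of them wild type (WT) and 5 carrying the *SOD1 G93A* transgene. The transgene is an array of many copies of human *SOD1* bearing the G93A change known from inherited amyotrophic lateral sclerosis, so these mice make mutant human protein on top of their own. The labels give the tissue as spinal cord, while the methods name the lumbar region.

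Checkpoint molecules are surface proteins that damp an immune response, and costimulatory ligands are their counterparts that drive it. In the healthy spinal cord the main cells able to display them are microglia, the resident macrophages of the nervous tissue, with a smaller share on border macrophages and on the rare blood leukocytes. Many of these proteins act in pairs, a ligand on a myeloid cell and a receptor on a lymphocyte, and others read sugars or bacterial products on the microglial surface itself.

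The quantity used is the base mean, a gene's read count divided by the size factor of each library and averaged by the authors over all 10 libraries, WT and *SOD1 G93A* together. It carries no group, so levels are given for the tissue of both genotypes pooled, and no comparison between *SOD1 G93A* and WT mice was made. A base mean grows with the length of a transcript, so genes are compared by the base mean per kb of their merged exons, named the level below. The base means summed to 22158933. Low base means are sums of whole reads, and the values of single reads gave the size factors of the 10 libraries, which are not tied to labels. They ran from 0.840 to 1.15, so the deepest library had 1.37 times the depth of the shallowest. From these factors each member's reads over all libraries were estimated, and 95% Poisson intervals were set on them. The intervals cover counting error only and leave out the spread between mice.

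All 10 members were detected well above single reads. Their base means lay between 22.4 for *Cd48* and 1751 for *Cd83*, which is about 226 to 17625 reads over the 10 libraries. A base mean of 10 or more was reached by 10 of 10 members, beside 75.9% of the 20973 genes above 0. The median level of the members was 32.9 per kb, below 59.6% of the 20594 genes above 0 that had a length, whose median level was 63.1 per kb. In bulk tissue, few cells with much of an RNA and many cells with little of it give the same level, and fewer cells of a type cannot be told apart from less RNA per cell.

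*Cd83*, a marker of mature antigen-presenting cells that keeps MHC class II and CD86 on the surface, stood far above the other members. Its level was 681 per kb (95% Poisson interval 671 to 691), the 92.7th percentile of genes above 0. *Lag3* followed at 97.3 per kb (93.1 to 102), so that *Cd83* was 7.0 times as high, or 22.7 times by coding length. Then came *Cd52* at 61.4 per kb (57.0 to 66.0), *Cd274* at 46.6 (44.4 to 48.9) and *Havcr2* at 39.2 (36.9 to 41.6). The lower members were *Cd180* at 26.6 per kb (25.1 to 28.1), *Cd84* at 19.9 (18.8 to 21), *Cd48* at 18.8 (16.5 to 21.5), *Cd33* at 18.5 (17.5 to 19.4) and *Cd86* at 16.0 (14.7 to 17.3). Of the 9 pairs of neighbours in this order, 7 had intervals that did not overlap. The other 2, *Cd84* with *Cd48* and *Cd48* with *Cd33*, could not be told apart by counting error alone. The place of *Cd83* did not depend on the length used, but *Cd52* passed *Lag3* with either of the other lengths tried. By coding length *Cd274* also passed *Lag3*, at 194 beside 131 per kb. *Cd48* took the lowest place from *Cd86* with the longest transcript and with the coding length.

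**Figure D1:**
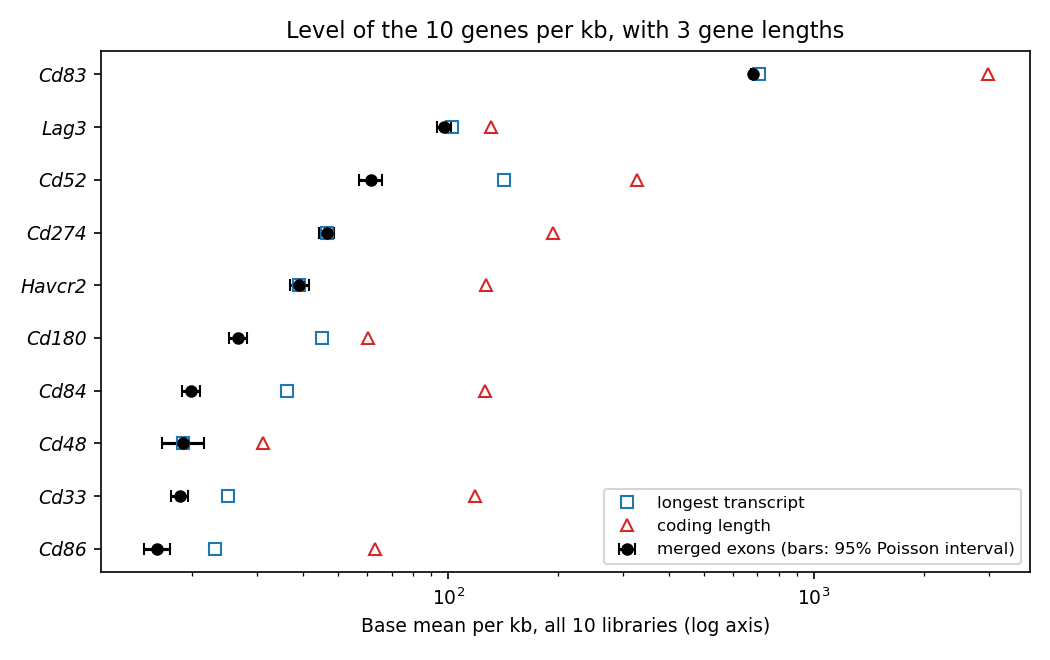
Level of each of the 10 genes as base mean per kb on a log axis, over all 10 libraries. Filled circles use merged exons, with bars for the 95% Poisson interval, open squares the longest transcript and open triangles the coding length. *Cd83* lies highest with all 3 lengths, at 681 per kb of merged exons, and *Cd52* lies above *Lag3* with the longest transcript and the coding length.

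Markers of the cells that could carry these molecules were measured beside the members, and by list medians 9 of the 10 members, *Cd83* being the exception, lay below microglia and above the other leukocytes. The 9 microglial markers were all above 0, with a summed base mean of 9159, a median level of 229 per kb and *Csf1r*, the receptor for the growth factor that microglia need, as the marker with the most reads, at a base mean of 3041. *Cd83* was 2.97 times the microglial median and higher than 8 of these 9 markers, and its source cells were not tested. *Lag3* stood at 42.5% of that median, and *Cd86*, the lowest member by merged exons, at 6.98%. By merged exons, 8 members lay below each of the 9 microglial markers, *Cd83* and *Lag3* being the exceptions. By the longest transcript *Cd52* took the place of *Lag3* as an exception, at 142 per kb beside 102 for *Lag3* and 123 for *Siglech*, the lowest marker on that scale.

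Markers of T and NK cells were close to the floor, and those of B cells were somewhat higher. The 8 T cell markers, all above 0, summed to a base mean of 17.6 with a median level of 0.538 per kb, and *Cd4* led them at a base mean of 5.57. Reads of *Cd3d*, a chain of the T cell receptor complex, numbered 12 in 7 of the 10 libraries, and those of *Cd8a* numbered 13 in 7 libraries. The 4 NK cell markers were all above 0 and summed to a base mean of 4.39 with a median of 0.350 per kb, with *Klrb1c* highest at a base mean of 1.40. All 5 B cell markers were above 0 and summed to 59.6 with a median of 3.03 per kb, with *Pax5*, which the developing nervous system also uses, highest at 26.9. *Cd79a*, a chain of the B cell receptor complex, had the highest level of that list at 7.30 per kb, from about 107 reads. Each of the 10 members had a higher level than the median of these 3 lists.

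Markers of other myeloid cells had lower list medians than microglia, with a few high genes among them. The 5 border macrophage markers, all above 0, summed to a base mean of 164 with a median level of 10.7 per kb, led by the mannose receptor gene *Mrc1* at a base mean of 76.8. The 5 neutrophil markers were all above 0 and summed to 113 with a median of 11.2 per kb, led by *S100a9* at 61.4 (118 per kb) with *S100a8* at 52.1 per kb, while *Ly6g* had 6 reads in 6 libraries. The 4 monocyte markers were all above 0 with a median of 2.54 per kb, and *Vcan*, which glia also make, held a base mean of 910 (62.9 per kb) of their sum of 929. The 5 dendritic cell markers were all above 0 with a median of 3.04 per kb and a sum of 890, of which *Flt3* held 765 (124 per kb), while *Xcr1* had 8 reads in 6 libraries. The level of every member exceeded the median of each of these 4 lists, but by merged exons *Flt3* and *S100a9* were above every member except *Cd83*, and *Vcan* was above every member except *Cd83* and *Lag3*. By the longest transcript *Cd52*, at 142 per kb, was also above *S100a9* at 118 and *Vcan* at 73.2 per kb. How much of any member came from these cells was not tested.

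The labelled tissue carried its own markers, and all of them were above 0. The 5 oligodendrocyte markers had a median level of 6791 per kb and a summed base mean of 546640, led by *Mbp* at 319615. The 5 astrocyte markers had a median of 2577 per kb and a sum of 133509, led by *Gfap* at 56289. Neuronal markers, 6 in number, had a median of 802 per kb and a sum of 90093, led by *Snap25* at 59050. The 5 motor neuron markers had a median of 156 per kb and a sum of 3412, led by *Prph* at 1424. Within that list *Isl1* and *Mnx1* were low, at 11.5 and 16.6 per kb. Endothelium gave a median of 137 per kb over 4 markers with a sum of 4040, led by *Flt1* at 2253. Schwann cell markers, which belong to the nerve roots, gave a median of 802 per kb over 3 genes with a sum of 5516, led by *Pmp22* at 3338.

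**Figure D2:**
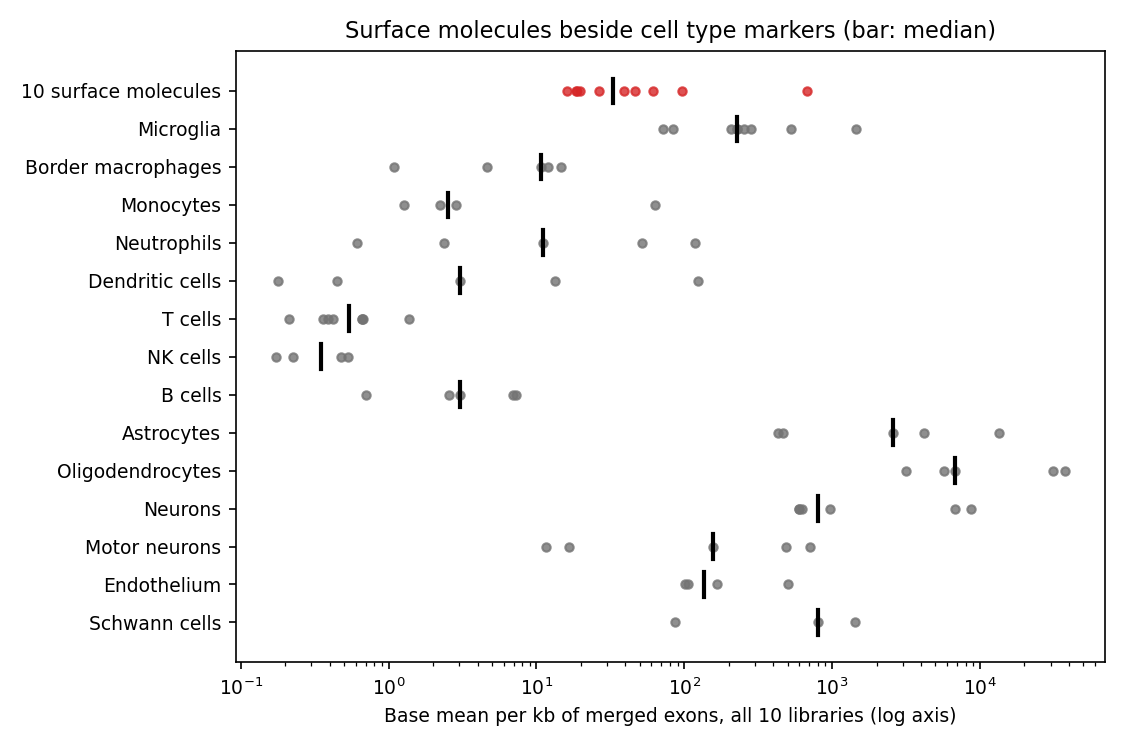
Level of the 10 surface molecules (red) and of the genes of 14 cell type marker lists (grey), each point a gene, as base mean per kb of merged exons on a log axis, with a black bar at the median of the list. The median of the 10 genes, 32.9 per kb, lies below the microglial median of 229 and above the T cell median of 0.538.

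*Lag3* encodes an inhibitory receptor related to CD4 that binds MHC class II and the secreted protein FGL1, and in lymphocytes it holds back T cell activation. The gene lies at chr6:124904361-124911705 on the minus strand (GRCm38), with 2109 bases of merged exons and a base mean of 205. Its relative *Cd4* is the nearest protein-coding gene at lower coordinates, 16.1 kb away, and had a level of 1.38 per kb. On the other side *Ptms*, the gene of parathymosin, lies 1.98 kb away and had a level of 2304 per kb. *Lag3* was thus 70.4 times as high as *Cd4* (interval for counting error 54.0 to 93.6), or 32.3 times by coding length. *Lag3* RNA was measured from about 2065 reads in tissue where the T cell markers were near the floor. Which cells this RNA came from was not tested.

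Ligands of LAG3 were present too. The MHC class II chains *H2-Aa*, *H2-Ab1* and *H2-Eb1* had levels of 21.8, 29.7 and 43.2 per kb, and *Cd74*, the invariant chain that escorts them, 102 per kb. *Lgals3*, the gene of galectin-3, a sugar-binding protein, had a level of 122 per kb. *Fgl1*, made mainly by the liver, had 3.33 per kb. All 6 of these genes, the 5 for ligands and *Cd74*, reached a base mean of 10, beside 75.9% of all genes above 0. *Fgl1* was the lowest of them.

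*Havcr2* encodes TIM-3, a receptor that restrains T cells and myeloid cells. It lies at chr11:46454935-46481255 on the plus strand, with 2721 bases of merged exons and a base mean of 107. The family sits together on chromosome 11, and its other members were almost silent. *Havcr1* and *Timd2* were each listed at the value of 1 read in 1 library, and *Timd4*, a phosphatidylserine receptor of resident macrophages elsewhere, had a level of 1.13 per kb. *Havcr2* was 34.7 times as high as *Timd4* (23.4 to 53.8), or 53.0 times by coding length.

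The listed binding partners of TIM-3 were all detected. *Lgals9*, the gene of galectin-9, had a level of 131 per kb, so *Havcr2* reached 0.299 of it (0.278 to 0.321), or 0.478 by coding length. *Ceacam1*, an adhesion molecule that pairs with TIM-3, had 22.5 per kb. *Hmgb1*, a chromatin protein that acts as an alarm signal outside the cell, had 168 per kb, and *Bag6*, a chaperone that binds the tail of TIM-3 inside the cell, 728 per kb. These last genes are used by most cells, so their levels say little about a single cell type.

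*Cd274* encodes PD-L1, the ligand through which a cell silences T cells that carry PD-1. The gene spans chr19:29367455-29388095 on the plus strand, with a base mean of 169 over 3622 bases of merged exons. Of these bases, 511 also belong to an antisense transcript, and since the strand setting of the counting is not stated, reads of both cannot be told apart. *Pdcd1lg2*, the gene of the second PD-1 ligand, starts 22.8 kb further on and had a level of 1.77 per kb. *Cd274* was 26.3 times as high (18.8 to 37.8), or 41.3 times by coding length. The receptor gene *Pdcd1* had 5.39 per kb, from about 105 reads over all libraries. Of the PD-1 ligands, PD-L1 RNA was therefore by far the more abundant.

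*Cd86* encodes the costimulatory ligand that activates T cells through CD28 and is removed by CTLA-4. It lies at chr16:36603869-36666081 on the minus strand, with 3661 bases of merged exons and a base mean of 58.5. Its partner ligand *Cd80* had a level of 9.91 per kb, so *Cd86* was 1.61 times as high (1.41 to 1.84). The lymphocyte receptor genes measured beside them were close to the floor. *Cd28* had a base mean of 2.93, *Ctla4* had 8 reads in 7 libraries and *Icos* had 15 reads in 7 libraries. *Icosl*, the ligand of ICOS, which is not confined to immune cells, had a level of 50.05 per kb. On this axis the ligands were measured with ease and the lymphocyte receptors hardly at all.

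*Cd83* lies at chr13:43784775-43803132 on the plus strand, with 2572 bases of merged exons and 1751 as its base mean. The nearest protein-coding genes are 114 kb away (*Rnf182*) and 926 kb away (*Jarid2*), and no other annotated gene shared its exons. Neither neighbour came near it, with levels of 83.7 per kb for *Rnf182* and 96.2 per kb for *Jarid2*.

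*Cd48* and *Cd84* belong to the SLAM family, adhesion receptors of blood cells that mostly bind a like molecule on the next cell. They lie in a cluster on chromosome 1, *Cd48* at chr1:171682009-171705258 and *Cd84* at chr1:171839697-171890718, both on the plus strand and 134 kb apart. Between them lies *Slamf1*, which had 16 reads in 8 libraries and a level of 0.256 per kb. *Cd84*, a receptor that binds itself, had a base mean of 125 over 6272 bases of merged exons, and *Cd48*, a lipid-anchored ligand of 2B4, had a base mean of 22.4 over 1189 bases. Per kb of merged exons the levels were alike, but by the longest transcript *Cd84* was 1.92 times as high as *Cd48*, and by coding length 4.06 times.

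The remaining genes of the family differed widely. *Cd244a*, the gene of 2B4 and thus of the receptor for CD48, had a level of 1.08 per kb, and *Cd48* was 17.4 times as high (12.8 to 23.9), or 7.0 times by coding length. *Ly9*, whose gene overlaps the span of *Cd244a* on the other strand, had 6.93 per kb. *Slamf6* and *Slamf7*, both known from lymphocytes, had 0.750 and 0.598 per kb. Further along the chromosome, *Slamf9* had 27.2 per kb and *Slamf8* 3.66 per kb. *Slamf9*, a myeloid member, was above *Cd84* by merged exons but below it by the other lengths. The adaptors that carry SLAM signals in lymphocytes were near the floor, with 3 reads of *Sh2d1a* in 2 libraries and 20 reads of *Sh2d1b1* in 8 libraries, and *Cd2*, a relative that binds CD48, had 14 reads in 7 libraries. By merged exons *Slamf9*, *Cd84* and *Cd48* were the highest genes of this family.

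**Figure D3:**
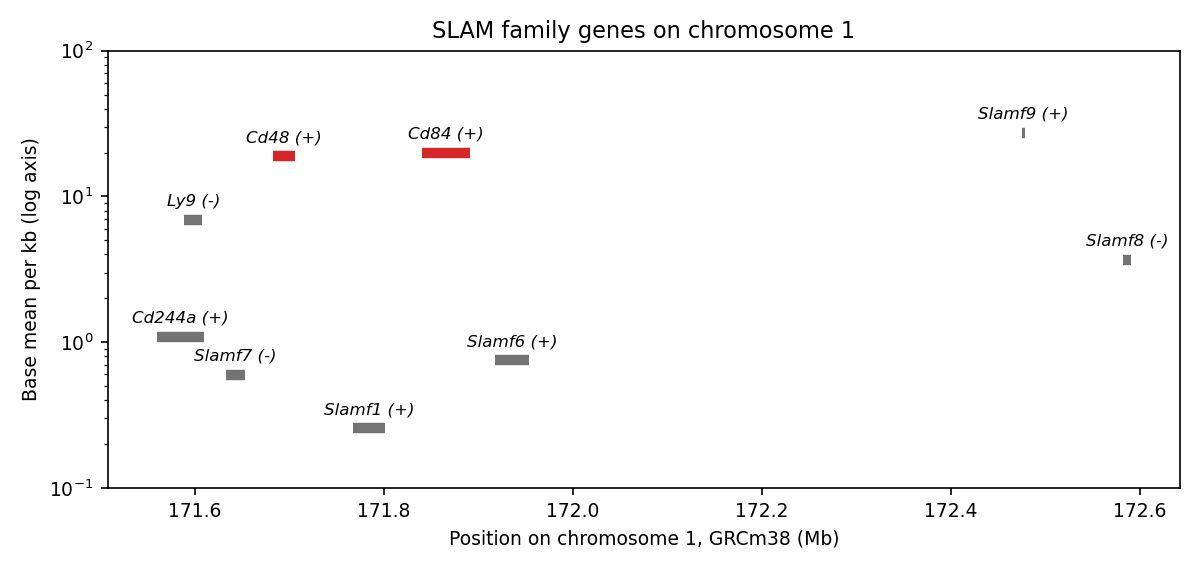
SLAM family genes along chromosome 1 (GRCm38, position in Mb), each bar spanning its gene and placed at the base mean per kb of merged exons on a log axis, with the strand in brackets. *Cd48* and *Cd84* (red) at 18.8 and 19.9 per kb lie on both sides of *Slamf1* at 0.256 per kb.

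*Cd33* encodes a sialic acid receptor of the Siglec family, which dampens myeloid cells in humans and is linked there to the risk of Alzheimer's disease. The mouse gene lies at chr7:43524216-43544428 on the minus strand, with 7771 bases of merged exons, the longest of the 10, and a base mean of 143. *Siglech*, a Siglec typical of microglia, had a level of 83.8 per kb, so *Cd33* reached 0.220 of it (0.207 to 0.235), or 0.417 by coding length. *Siglece* and *Siglecf* had 11.7 and 10.1 per kb, *Siglec1*, a mark of border macrophages, 3.71 per kb, and *Siglecg*, known from B cells, 0.791 per kb. *Cd33* thus came after *Siglech* among the Siglec genes measured.

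By merged exons, genes that pass on Siglec signals had higher levels than *Cd33*. With no length, *Ptpn6* was close to *Cd33*, at a base mean of 155 beside 143. *Tyrobp*, the gene of the adaptor DAP12 of microglia, had a level of 662 per kb. The phosphatase genes *Ptpn6* and *Ptpn11*, whose products bind inhibitory tails, had 55.4 and 946 per kb. *Ptpn6* is mainly a gene of blood cells, while *Ptpn11* is used by nearly all cells.

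*Cd180* encodes a leucine-rich repeat receptor akin to TLR4, which needs the secreted protein MD-1 to reach the surface. It lies at chr13:102693558-102739629 on the plus strand, with 4509 bases of merged exons and a base mean of 120. *Mast4*, on the other strand and with a base mean of 3388, shares 182 of these bases, so some reads could be counted for either gene. *Ly86*, the gene of MD-1, had a level of 93.5 per kb, so *Cd180* reached 0.284 of it (0.266 to 0.304), or 0.0865 by coding length. *Tlr4*, the receptor for bacterial endotoxin, had 9.67 per kb, and *Cd180* was 2.75 times as high (2.48 to 3.05). *Ly96*, the gene of MD-2, the partner of TLR4, had 15.9 per kb, *Cd14*, their co-receptor, 50.9, and *Tlr2* 46.8. In both pairs the secreted partner was the higher gene per kb. With no length *Ly96* was below *Tlr4*, at a base mean of 16.3 beside 53.8.

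*Cd52* encodes a very short lipid-anchored peptide of leukocytes that carries a large sugar. It lies at chr4:134082448-134095082 on the minus strand, with a base mean of 72.9. Its merged exons hold 1187 bases, of which 172 overlap *Crybg2* on the other strand, at a base mean of 7.95. The longest transcript has 514 bases in 2 exons, so the level rose from 61.4 per kb of merged exons to 142 per kb of this transcript, above the 102 per kb of *Lag3*. The coding sequence is short enough to be shown whole. It runs over 225 bases between chr4:134093727-134094984 on the minus strand, taken from GENCODE M21 on GRCm38, with the start and stop codons in capitals.
Cd52: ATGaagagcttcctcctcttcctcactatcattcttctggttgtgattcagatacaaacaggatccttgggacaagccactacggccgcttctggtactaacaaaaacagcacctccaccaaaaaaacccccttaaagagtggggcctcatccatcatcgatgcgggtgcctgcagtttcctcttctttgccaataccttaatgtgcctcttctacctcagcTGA
Soluble CD52 binds HMGB1 and the human relative of *Siglecg*, and these genes had levels of 168 and 0.791 per kb.

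A wider list of 25 checkpoint receptors, ligands and leukocyte surface genes had a median of 27.8 per kb, near the 32.9 of the members. A base mean of 10 was reached by 20 of the 25, beside 75.9% of all genes above 0. *Sirpa*, the receptor for the don't-eat-me signal CD47, led the list at 872 per kb, followed by *Cd200*, a neuronal ligand that quiets microglia, at 531 per kb. *Cd68*, a lysosomal protein of macrophages, had 215 per kb, *Vsir*, the gene of the checkpoint VISTA, 208 per kb, and *Cd47* 190 per kb. Of these, *Sirpa*, *Cd200* and *Cd47* are also known from neurons, and which cells their RNA came from was not tested. *Vsir* was 2.14 times as high as *Lag3* (2.04 to 2.25), or 8.59 times by coding length.

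The middle of this list overlapped the range of the members other than *Cd83*. *Cd53* had a level of 97.7 per kb, beside 97.3 for *Lag3*, the highest of these members. *Nectin2* had 48.3, *Cd72* 42.2, *Cd276* 39.7 and *Lair1* 35.9 per kb. *Pvr*, *Pilra* and *Cd37* had levels of 29.7, 28.0 and 27.8 per kb, and *Tnfrsf14* had 13.7, below every member. Lower still were *Lilrb4a* at 6.57 per kb, *Btla* at 5.99, *Cd300a* at 5.74, *Cd40* at 5.50, *Pirb* at 4.09 and *Cd300lf* at 3.13. *Lilrb4a*, *Pirb* and *Pilrb1* have close copies in the genome, and counts of uniquely mapped reads are uncertain for them. *Cd200r1*, the receptor for CD200, had 1.38 per kb and *Clec12a* 1.00. The last were *Tigit* with 8 reads in 5 libraries, *Vtcn1* with 19 in 9 and *Pilrb1* with 4 in 3. TIGIT is a lymphocyte receptor whose ligands are the products of *Pvr* and *Nectin2*, which had far more reads. The lymphocyte receptor gene *Btla* was not at the floor, at 5.99 per kb from about 205 reads, beside 13.7 per kb for *Tnfrsf14*, the gene of its ligand.

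Windows around the transcription start, 250 bases before it and 50 from it on, were read from RefSeq promoters on GRCm38.p6 for 6 of the 10 members, *Cd33*, *Cd48*, *Cd84*, *Cd180*, *Cd274* and *Havcr2*, with windows of *Lag3*, *Cd83*, *Cd86* and *Cd52* not used here. GAGGAA, the core letters of sites for the myeloid factor PU.1, was searched on both strands. It was found in 3 of the 6 members, beside 31.3% of the 27025 genes with a window. Some genes have several windows, as *Cd180* has 2, and by window it was found in 3 of 7 beside 28.3% of 32851. GGAAGT, another part of such sites that can overlap the first, was found in 4 of the 6, *Cd33*, *Cd48*, *Cd180* and *Havcr2*, beside 26.5% of genes, and in 5 of 7 windows beside 23.8%. TATAAA was found on the gene's strand in 0 of the 6, beside 9.77% of genes and 8.32% of windows. The C+G share ran from 43.7% in a window of *Cd180* to 52.7% in that of *Cd274*, beside a median of 52.7% over all windows. A match in these letters is a description and not a bound site.

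The 3 matches of GAGGAA are shown with 10 bases on each side, so that their setting can be read. They are written 5′ to 3′ on the strand of the gene, with GAGGAA, or its reverse complement TTCCTC, in capitals. In *Havcr2* the match begins 8 bases before the start (chr11:46454913-46454938, plus strand), in *Cd33* 226 bases before it (chr7:43533382-43533407, minus strand, where the RefSeq start lies 11.3 kb inside the GENCODE span given above), and in *Cd84* at base 12 of the transcript (chr1:171839698-171839723, plus strand).
Havcr2: tcaggagttaGAGGAAgtaccatttt
Cd33: agtggaatggGAGGAAgccacaaaga
Cd84: gtgcttggagTTCCTCtgtgactgac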

How the data were processed

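RNA of the spinal cord of 5 WT and 5 *SOD1 G93A* female mice was sequenced. Per the methods and the labels, the authors filtered reads with Fastp, aligned them to mm10 with HISAT2 2.1.0 and assigned reads that mapped uniquely to genes with featureCounts 2.0.2. The libraries were stranded. The strand setting of the counting and the gene annotation are not given in the sources used here. The authors divided counts by the size factors of DESeq2. The deposited base mean, a signal that is never negative, is their mean over all libraries of both groups, with no SD or n. The remaining 5 columns hold the authors' own comparison of *SOD1 G93A* with WT (log2 fold change, its standard error, the Wald statistic, the p-value and the adjusted p-value) and were not used. Without values per labelled library, no test between the groups was made.

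Gene lengths were taken from GENCODE M21 (GRCm38, the same assembly as mm10) in place of the planned RefSeq exons. They matched 24310 genes by symbol and 334 by a synonym, which held 99.3% of the summed base means. The 10 single-read values, each listed for 50 to 103 genes, gave the size factors, and all 2451 genes with a base mean above 0 and below 1 were sums of whole reads within a tolerance of 1.5e-09. Of these, 1560 had been used to refine the factors, and the 891 others were whole as well. This step was tested on simulated data. Whole reads were sought up to 22 per gene, so reads per library were not sought for the members. Reads were estimated as the base mean times the sum of the size factors, 10.1. Intervals are exact Poisson ones, or exact binomial ones for ratios, at 95%. Python 3.11.15, pandas 2.3.3 and scipy 1.17.1 were used. All members, all partner genes and the marker of each list with the most reads were named; a few further markers and neighbouring genes were named after their values were seen. *Cd244*, one of the listed partners, was matched only as *Cd244a*. A listed microglial marker is not reported here and was left out of its list. The members and lists were chosen with earlier results of these data known.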

Additional observations from a re-analysis of the deposited data

How the results depend on the processing

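The median level of the 10 genes moved from 32.9 per kb of merged exons to 42.2 per kb of the longest transcript and 126 per kb of coding length. The level left its counting interval in 7 of 10 genes with the longest transcript and in 10 of 10 with the coding length. Of 10 places in the order, 3 were the same with the longest transcript, 2 with the coding length and 3 with the base mean without a length. The percentile of the median member was 40.4 among genes above 0, 50.2 among all genes, 22.8 among genes whose base mean was 10 or more, and 42.0 with no length. A base mean of 5 was reached by 10 members beside 79.8% of genes above 0, of 20 by 10 beside 71.8%, of 50 by 9 beside 65.5% and of 100 by 7 beside 59.9%. With the mean of log2 levels, or with no length, *Cd83* was again the 1 member above the level of the microglial list as a whole, and all 10 members were above that of the T cell list. GAGGAA was found in 2 of 6 members with only the bases before the start, beside 25.9% of genes, and in 2 of 6 on the gene's strand, beside 17.7% of genes. A wider tolerance can only accept more genes, so it is no check of the whole reads.

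No paired analysis was possible because the table has no values per labelled library. Leaving out each replicate, a replicate block and another count tool were not run for the same reason. Protein features, with both ways to compute identity, were not run, as no protein sequences were used here. Depth limits genes such as *Ctla4*, *Tigit* and *Havcr1*, with at most 8 reads each over all libraries. The spread between mice is not known for any level, and levels of both genotypes are averaged, so a difference between them would not show.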
